A study of Mus musculus with 8 samples.

Results

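The 10 genes Cyp2g1, Cyp2f2, Ugt2a1, Cbr2, Krt8, Krt18, Sec14l3, Aqp3, Umodl1 and Mslnl are known from supporting (sustentacular) cells and other epithelial cells of the olfactory mucosa, and were followed here over 8 one-colour microarrays of the mouse olfactory bulb. They were found by gene name among the noncontrol probes of the array, which gave 13 probes for the 10 genes, out of 34797 gene names in all and 16484 genes measured on every array. The genes had been chosen by their values on these same arrays: 7 belong to the set the study selected at 1.5-fold in any of 3 contrasts (exhaust against clean air within either housing, or EE-DE against C-C), and Cyp2g1, Sec14l3 and Krt8 were taken from the largest differences between diesel exhaust and clean air in standard cages. All levels and differences below are therefore descriptions, and no test was made of them.

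All mice were male C57BL/6J offspring. Their dams were placed at gestational day 14 in a standard cage (C) or in a larger cage with a running wheel, house, blocks and tubing (environmental enrichment, EE), where the pups stayed until weaning at postnatal day 27. They then kept this housing in a chamber with clean air (C-C and EE-C) or with diesel exhaust at 90 µg/m3 (C-DE and EE-DE) for 8 hours a day over 28 days, postnatal days 28 to 55, and bulbs were taken at 56 days of age. Per the methods, the RNA of all mice of a group was combined into 1 pool, from 7 mice in either standard-cage group, 8 EE-C mice and 9 EE-DE mice. Each pool was hybridised to 2 arrays. A group is thus 1 pool, the 2 arrays are technical duplicates, the spread between mice cannot be read from them, and their small number limits the precision. The study's measurements in single mice were not used here.

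Supporting cells are tall epithelial cells that span the olfactory epithelium, wrap the olfactory sensory neurons and carry much of the enzyme apparatus of the nose for inhaled chemicals and odorants. Cytochrome P450 enzymes oxidise such compounds, and UDP-glucuronosyltransferases and carbonyl reductases handle the products. Simple epithelial cells of this kind build their filaments from the keratin pair Krt8 and Krt18. The epithelium lies in the nasal cavity, and the axons of its neurons pass through the bone of the cribriform plate to end in the bulb, which has no such epithelium of its own.

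Of the 13 probes, 12 were well above background on every array and none had an outlier flag. Cyp2g1 (NM_013809, chr7:27606111-27606170, mm9) and Cyp2f2 (NM_007817, chr7:27918570-27918629) lie in 1 cluster of P450 genes on chromosome 7. Krt8 (AK166854, chr15:101827138-101827197) and Krt18 (NM_010664, chr15:101862341-101862400) are neighbours, 23.9 kb apart in RefSeq's GRCm38.p6 annotation. The other probes lie at chr5:87888745-87888804 for Ugt2a1 (NM_053184), chr11:120590825-120590884 and chr11:120592059-120592118 for Cbr2 (NM_007621), chr11:3975248-3975307 and chr11:3978896-3978955 for Sec14l3 (NM_001029937), chr4:41039962-41040021 for Aqp3 (NM_016689), chr17:31147589-31147648 for Umodl1 (NM_177465) and chr17:25885141-25885200 for Mslnl (NM_177822). Whether each lies in coding sequence or a UTR was not determined here.

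The 250 bases before the start were read for the 9 members that RefSeq's promoter table (GRCm38.p6) holds. Whether shared letters relate to the members' levels was not tested. The 15 motifs searched, on both strands, are a large family for so few genes, and their matches are given as counts only. The core CCCNNGGG of the site bound by Ebf factors, which drive olfactory neuron genes, was found on either strand in 5 of the 9 (Aqp3, Krt8, Mslnl, Sec14l3 and Umodl1), and in 11.8% of all 32851 promoters. Its longer form, with a T before and an A after that core, was found in 1 of the 9, Sec14l3, and in 0.779% of all promoters. The stretches of Aqp3, Krt8 and Sec14l3 are shown because they hold the core, and in those of Mslnl and Umodl1 the table's window lies partly inside the annotated gene. Capitals mark CCCNNGGG, which begins 68 bases before the start in Aqp3 and 28 bases before it in Sec14l3. In Krt8 the capitals are 2 overlapping matches that begin 24 and 23 bases before the start.
Aqp3 (chr4:41098184-41098433, minus strand): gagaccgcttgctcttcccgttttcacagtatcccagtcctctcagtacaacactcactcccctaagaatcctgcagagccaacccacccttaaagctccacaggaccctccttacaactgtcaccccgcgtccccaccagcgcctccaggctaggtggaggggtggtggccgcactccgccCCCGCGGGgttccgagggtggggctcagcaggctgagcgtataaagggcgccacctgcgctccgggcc
Krt8 (chr15:102004343-102004592, minus strand): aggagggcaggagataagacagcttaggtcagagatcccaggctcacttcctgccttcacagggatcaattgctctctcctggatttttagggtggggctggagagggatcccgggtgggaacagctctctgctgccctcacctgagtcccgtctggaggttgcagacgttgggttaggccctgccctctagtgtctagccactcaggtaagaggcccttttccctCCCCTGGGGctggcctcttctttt
Sec14l3 (chr11:4064603-4064852, plus strand): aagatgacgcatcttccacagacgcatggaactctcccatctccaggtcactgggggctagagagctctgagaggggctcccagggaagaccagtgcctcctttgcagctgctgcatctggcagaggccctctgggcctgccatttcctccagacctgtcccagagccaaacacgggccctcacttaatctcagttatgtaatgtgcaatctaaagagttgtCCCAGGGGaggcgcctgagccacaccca
The TATA box letters TATAAA were found in Aqp3 and Ugt2a1, 2 of the 9 against 12.4% of all promoters. Matches for the other letters numbered 1 for TTTAAA (12.1% of all promoters), 1 for GGGCGG (32.7%), 1 for CCAAT (33.8%), 2 for TGTTTNC (17.8%) and 2 for GCGTG (28.2%). There was no match for TGTTTAC (3.17%), a case of TGTTTNC, nor for TTGTTT (18.3%), the Hnf1 palindrome (0.00913%), TGANTCA (6.75%), AACAAAG (5.03%), CACGTG (6.02%) or TTGCGTG (0.925%), which holds GCGTG. A match is a run of letters and not a bound site, and the C and G content was 64.0% in Aqp3, 58.0% in Krt8 and 57.6% in Sec14l3 against a median of 52.4% over all promoters.

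Levels are given as the log2 of the processed signal relative to the 75th percentile of the array, so that 0 is the level of that percentile and 1 is a doubling. They are compared between arrays for a gene and not between genes. The 10 genes ordered the 8 arrays in nearly the same way. The first C-DE array was the lowest of the 8 and the second EE-DE array the highest for all 10 genes, and the second C-C array was the fourth lowest for all 10. Averaged over the genes after each was centred on its own mean, the first and second arrays stood at 0.70 and −0.10 in C-C, −1.07 and −0.76 in C-DE, 0.54 and −0.75 in EE-C, and 0.35 and 1.08 in EE-DE. The SD of a gene over the arrays was 0.65 to 1.09, against a median of 0.08 over all genes measured.

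The duplicates of a pool must be considered first, because they carry the same RNA per the methods. For these genes they lay apart in all 4 pools, always in 1 direction within a pool. Whether the duplicates came from 1 and the same pool could not be checked from the files, and the cause of the gaps was not tested. In EE-C the first array was higher for all 10 genes, by a median of 1.26 (0.86 to 2.06). All 10 genes were at least 1.5-fold apart between the EE-C duplicates, as were 2.06% of all genes. In C-C the first array was also higher for all 10, by 0.80 (0.62 to 1.00). Again all 10 passed 1.5-fold between duplicates, as did 0.849% of all genes. In EE-DE the second array was the higher for all 10, with a first minus second difference of −0.71 (−1.05 to −0.51). There 9 of the 10 passed 1.5-fold, against 1.25% of all genes. C-DE had the closest duplicates for each of the 10 genes, with a difference of −0.33 (−0.43 to −0.16), and none passed 1.5-fold, against 0.758% of all genes. The SD of the duplicate differences over all genes was 0.15 to 0.23 in the 4 pools. The differences between pools below are therefore given as the difference of the pool means, with the range over the 4 pairings of 1 array of each pool in parentheses.

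**Figure D1:**
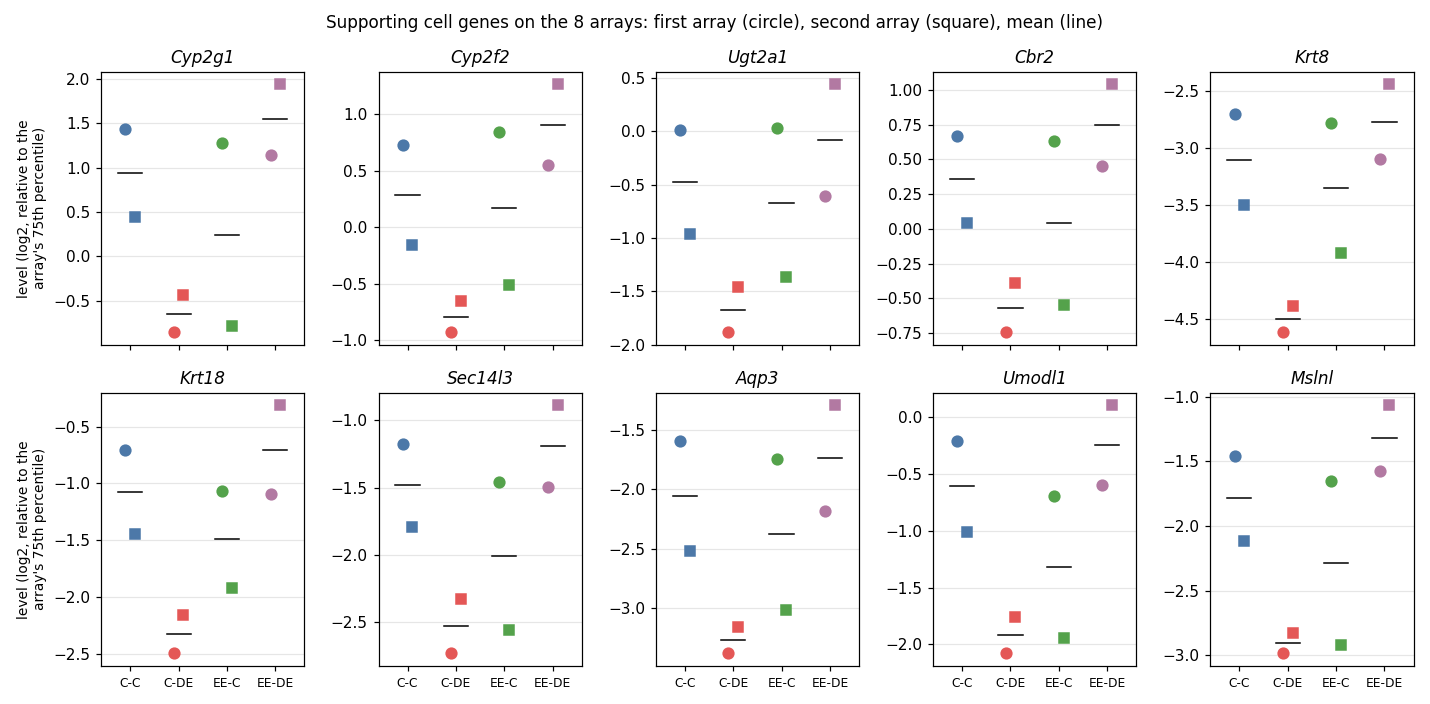
Level of each of the 10 genes on the 8 arrays (log2, relative to the array's 75th percentile), by pool, with the first array as a circle, the second as a square and the pool mean as a line; each panel has its own axis. In every panel both C-DE arrays lie below both C-C arrays, the second EE-DE array is the highest, and the 2 EE-C arrays lie far apart.

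Cyp2g1 encodes a P450 enzyme known for its near restriction to the olfactory mucosa, and it varied most among the members. Its levels on the first and second arrays were 1.44 and 0.44 in C-C, −0.86 and −0.44 in C-DE, 1.27 and −0.79 in EE-C, and 1.14 and 1.94 in EE-DE. Both C-DE arrays were thus below both C-C and both EE-DE arrays, while the EE-C arrays lay 2.06 apart, of a range of 2.79 over all 8. The C-DE mean was 3.00-fold lower than the C-C mean, a difference of −1.59 (−2.29 to −0.88). The EE-DE mean was 1.30 above the EE-C mean, but the pairings reached from −0.13 to 2.73.

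Cyp2f2, the P450 enzyme known for the activation of naphthalene in the airway, read 0.73 and −0.15 in C-C, −0.93 and −0.65 in C-DE, 0.84 and −0.51 in EE-C, and 0.55 and 1.26 in EE-DE. The second EE-C array was close to the C-DE arrays and the first was above the first C-C array. In C-DE/C-C the difference was −1.08 (−1.66 to −0.50), or 2.11-fold lower.

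Ugt2a1 is a glucuronosyltransferase of the nasal epithelium that conjugates odorants. On the first and second arrays it stood at 0.01 and −0.96 in C-C, −1.89 and −1.46 in C-DE, 0.03 and −1.37 in EE-C, and −0.61 and 0.44 in EE-DE. Its EE-DE duplicates, 1.05 apart, were the farthest apart of the 10 genes in that pool, and the first of them lay below the first EE-C array. The C-DE mean was lower than the C-C mean by 2.30-fold, at −1.20 (−1.90 to −0.50).

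Cbr2, a carbonyl reductase, had levels of 0.67 and 0.05 in C-C, −0.75 and −0.39 in C-DE, 0.64 and −0.55 in EE-C, and 1.04 on the second EE-DE array against 0.46 on the first. Its C-DE/C-C difference was −0.93 (−1.42 to −0.44), or 1.90-fold. Its 2 probes, 1234 bases apart, differed by 3.01 in mean level but gave −0.91 and −0.94 in C-DE/C-C, and their levels followed each other over the 8 arrays (r = 0.99).

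Krt8 and Krt18 encode the type II and type I keratins that pair in simple epithelia. Krt8 read −2.70 and −3.50 in C-C, −4.62 and −4.39 in C-DE, −2.78 and −3.92 in EE-C, and −3.10 and −2.44 in EE-DE. Krt18 read −0.71 and −1.44 in C-C, −2.50 and −2.16 in C-DE, −1.06 and −1.92 in EE-C, and −1.10 and −0.31 in EE-DE. For both genes the C-DE arrays were the 2 lowest of the 8, as they were for Cyp2f2, Ugt2a1 and Aqp3. The share of all genes with this order was not computed. The C-DE/C-C differences were −1.40 (−1.92 to −0.89) for Krt8, 2.64-fold, and −1.25 (−1.79 to −0.71) for Krt18, 2.38-fold. The 2 partners had r = 0.98 over the 8 arrays.

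A second probe of Krt8 (NM_031170, chr15:101828827-101828886) was the 1 member probe not well above background on every array. It was well above background on 5, and on neither C-DE array. With its C-DE level set to the background limit, it was at least 3.06-fold higher in C-C than in C-DE. This probe read −0.07 on the second EE-C array but −4.16 to −7.26 on the other 7. That value opposes the low reading of the first probe on the same array, and the second probe was left out of the level of Krt8. With it included, the difference of Krt8 was −1.93 in C-DE/C-C, but its sign turned in EE-C/C-C, to 0.89 from −0.25, and in EE-DE/EE-C, to −0.74 from 0.58.

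Sec14l3, a lipid-binding protein of the Sec14 family, had mean levels over its probes of −1.17 and −1.79 in C-C, −2.74 and −2.33 in C-DE, −1.46 and −2.57 in EE-C, and −1.50 and −0.89 in EE-DE. The second EE-C array lay between the C-DE arrays. The difference in C-DE/C-C was −1.05 (−1.56 to −0.54), or 2.07-fold. Its 2 probes agreed on the order (r = 0.95) but not on the size, with −1.48 for the brighter and −0.62 for the dimmer, whose level was lower by a mean of 3.13.

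Aqp3 forms a channel for water and glycerol in epithelial membranes. It read −1.59 and −2.52 in C-C, −3.38 and −3.16 in C-DE, −1.74 and −3.01 in EE-C, and −2.18 and −1.29 in EE-DE. Its C-DE arrays were the lowest of the 8, with the second EE-C array next. The C-DE/C-C difference was −1.21 (−1.79 to −0.63), a fold of 2.32.

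Umodl1, the uromodulin-like protein also called olfactorin, stood at −0.20 and −1.01 in C-C, −2.08 and −1.75 in C-DE, −0.69 and −1.94 in EE-C, and −0.59 and 0.11 in EE-DE. Mslnl, a relative of mesothelin, stood at −1.46 and −2.11 in C-C, −2.99 and −2.83 in C-DE, −1.65 and −2.92 in EE-C, and −1.57 and −1.07 in EE-DE. Both had their second EE-C array between the C-DE arrays, and both had all EE-DE arrays above all EE-C arrays, which held for no other member and for 14.4% of all genes. In C-DE/C-C they differed by −1.31 (−1.88 to −0.75), 2.48-fold, and −1.12 (−1.53 to −0.72), 2.18-fold.

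The first comparison asked how diesel exhaust related to gene expression in standard cages. All 10 genes were lower in C-DE than in C-C by at least 1.5-fold, as were 0.485% of the 16484 genes, with a median of −1.21 against −0.01 over all genes. Because the exposure contrast within either housing and that of EE-DE with C-C served to choose genes, nothing is read from the counts in these 3, and the other contrasts share pools with them. Both C-DE arrays lay below both C-C arrays for all 10, which held for 22.2% of all genes. At least 1.5-fold in each of the 4 pairings was reached by 6 of the 10 (Cyp2g1, Krt8, Krt18, Aqp3, Umodl1 and Mslnl) and by 0.103% of all genes. On the scale of spots well above background it was reached by 3 (Cyp2g1, Krt8 and Umodl1), with all pairings of the 10 still below 0. The other 4 missed it only in the pairing of the second arrays, where Sec14l3 differed by −0.54, Cyp2f2 and Ugt2a1 by −0.50 and Cbr2, the closest, by −0.44. A bulk signal cannot tell fewer cells of a type from less RNA per cell.

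Under enrichment the same exposure gave the opposite sign on average. All 10 genes were higher in EE-DE than in EE-C, with a median of 0.76, and 8 of them by at least 1.5-fold, against 0.546% of all genes. Ugt2a1 and Krt8, at 0.58 each, lay just under the threshold of 0.585, and Aqp3 just above it at 0.64. The median over the genes ran from −0.15 to 1.75 over the 4 pairings. For 8 of the 10 genes the first EE-DE array was below the first EE-C array, so these pools overlapped for all but Umodl1 and Mslnl, 2 of 10 against 14.4% of all genes. Without the second EE-C array the median was 0.19 and no gene passed, and without the first it was 1.34 and all 10 passed. With the median of spots well above background as the scale, which moves the median of all genes by −0.53 here, the members' median was 0.25 and only Cyp2g1 passed, at 0.78.

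**Figure D2:**
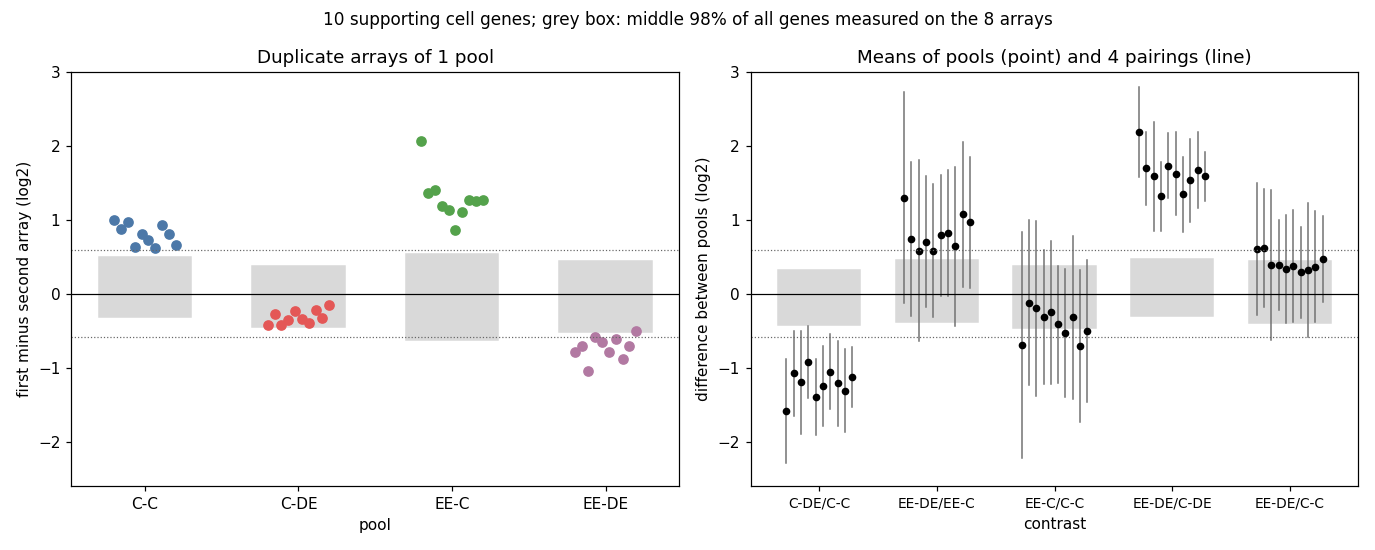
Left, the difference between the first and second arrays of each pool (log2) for the 10 genes, as points; right, the difference between pool means (log2) in 5 contrasts as points, with lines over the 4 pairings and the genes in the order Cyp2g1, Cyp2f2, Ugt2a1, Cbr2, Krt8, Krt18, Sec14l3, Aqp3, Umodl1 and Mslnl. Grey boxes hold the middle 98% of all 16484 genes and dotted lines mark 1.5-fold; the lines stay on 1 side of 0 for all 10 genes in C-DE/C-C and EE-DE/C-DE only.

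The housing contrast under clean air had both signs among its pairings. All 10 genes were lower in EE-C than in C-C, with a median of −0.37, but every one of the 10 had pairings on both sides of 0. Only Cyp2g1 at −0.69 (−2.23 to 0.84) and Umodl1 at −0.71 (−1.74 to 0.32) passed 1.5-fold, 2 of 10 against 0.461% of all genes. Without the second EE-C array the median turned to 0.30.

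In EE-DE/C-DE, the housing contrast under diesel exhaust, all 10 genes were at least 1.5-fold higher, against 0.655% of all genes, with a median of 1.61 (1.11 to 2.18). Both EE-DE arrays were above both C-DE arrays for all 10 and for 21.7% of all genes. Each of the 4 pairings passed 1.5-fold for all 10 and for 0.194% of all genes. On the scale of spots well above background all 10 pool means stayed higher (median 1.10), but the lowest pairing was below 0 for Ugt2a1, Cbr2, Sec14l3 and Aqp3, and only Cyp2g1 passed 1.5-fold in all 4. The Cyp2g1 difference was 2.19 (1.58 to 2.79), or 4.56-fold, and those of Krt8 and Cyp2f2 were 1.73 (1.29 to 2.18) and 1.70 (1.20 to 2.19). With normexp background correction Krt8, a dim gene, was 0.85 here and −0.63 in C-DE/C-C. Cbr2 stood at 1.32 (0.85 to 1.79). This contrast shares the C-DE pool with C-DE/C-C, so that 1 low pool enters both. The arrays of the standard-cage pools lay in 1 column of the slide and those of the enriched pools in the other, so that housing and slide column cannot be told apart.

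EE-DE and C-C, which differ in both housing and air, overlapped for every gene. The first EE-DE array lay below the first C-C array for all 10. The median in EE-DE/C-C was 0.38 (−0.35 to 1.12), and 2 genes passed 1.5-fold, Cyp2g1 at 0.60 and Cyp2f2 at 0.62, against 0.51% of all genes. On the scale of spots well above background the median turned to −0.14 and 0 genes passed. The exposure difference under enrichment minus that in standard cages had a median of 1.93 over the 10 genes (1.63 to 2.88), against −0.01 over all genes. It was not tested, since each of the 4 pools counts once in it. Both of its parts served to choose the genes, so nothing is read from its size or from the count that follows. All pairings were below 0 in standard cages and above 0 under enrichment for Umodl1 and Mslnl, and for 2.21% of all genes.

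Over the 45 pairs of members the correlation over the 8 arrays was 0.955 to 0.997, with a median of 0.980. The highest was that of Sec14l3 with Umodl1 and the lowest that of Ugt2a1 with Umodl1. These values rest on 8 arrays of 4 pools, include the differences between pools by which the genes were chosen, and every pair shares the same libraries. The spots around the 12 probes used deviated by no more than 0.06 (log2) on any array. Around the second Krt8 probe the deviation was −0.44 on the first EE-C array.

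Among 610 other genes with an SD of at least 0.3 over the arrays, 25 had a correlation of at least 0.9 with the mean profile of the members, and 0 had one of −0.9 or lower. For this ranking each gene was taken by its best single probe, not by the mean over its probes. The 10 most alike were Cnga4 (r = 0.996), Fetub (0.991), Ano2 (0.991), Muc16 (0.988), Ebf2 (0.981), Scn4b (0.976), Cngb1 (0.971), Gadl1 (0.970), Gm949 (0.968) and Cyp2a4 (0.967). Cnga4 and Cngb1 are subunits of the cyclic nucleotide-gated channel of olfactory sensory neurons, and Ano2 is their calcium-activated chloride channel. Averaged over its probes Cngb1 had r = 0.92 and a C-DE/C-C difference of only −0.29. Muc16 is a membrane mucin, and Ebf2 is one of the factors whose core letters were searched above.

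Cnga4 read −1.58 and −2.15 in C-C, −2.97 and −2.66 in C-DE, −1.83 and −2.71 in EE-C, and −1.80 and −1.30 in EE-DE. Like the members it was lowest on the first C-DE and highest on the second EE-DE array, with its C-DE duplicates closest and its EE-C duplicates 0.88 apart. Muc16 read −3.06 and −3.67 in C-C, −5.06 and −4.52 in C-DE, −3.25 and −4.39 in EE-C, and −3.45 and −2.45 in EE-DE. Its C-DE/C-C difference of −1.42 was larger than that of 9 of the 10 members. It rests on 1 dim probe, whose value with normexp background correction was not examined. The lowest correlations were those of Ysk4 (−0.79), D330050I16Rik (−0.75), Chmp4b (−0.65), 6030422M02Rik (−0.64) and Nr5a2 (−0.60). In this ranking by 1 probe per gene, no gene mirrored the members as closely as others followed them.

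**Figure D3:**
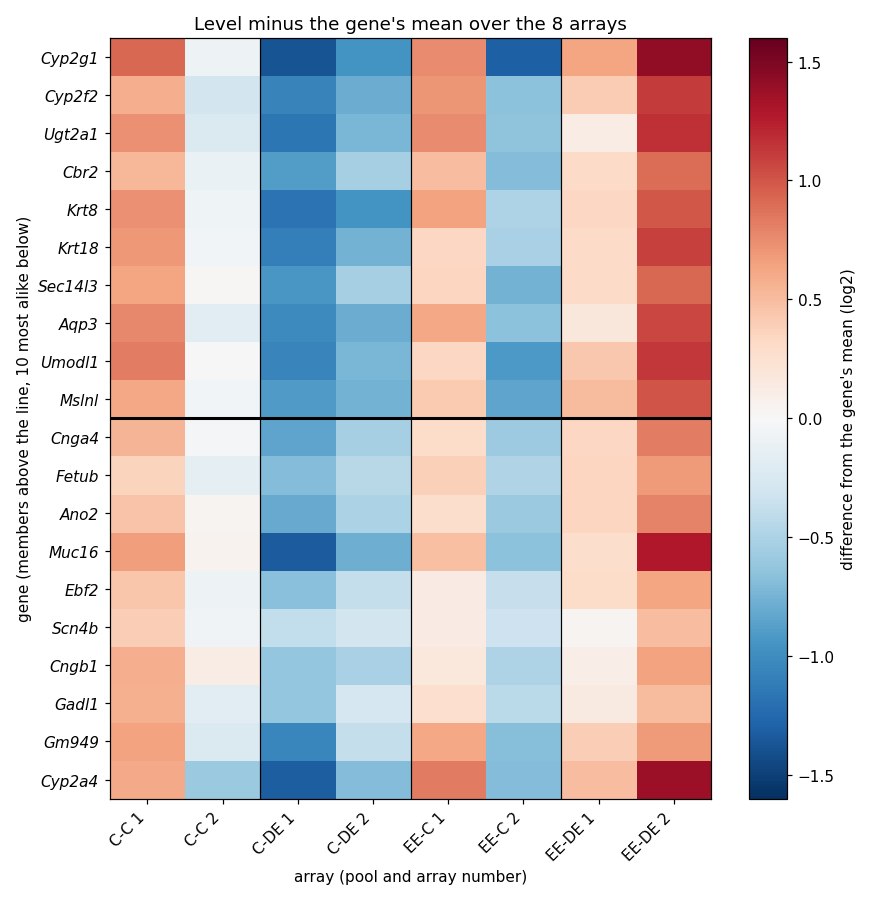
Level minus the gene's mean over the 8 arrays (log2, colour) for the 10 members, above the line, and the 10 genes most alike, below it; columns are the first and second arrays of each pool. All 20 rows are lowest on the first C-DE array, and all but Gadl1, which peaks on the first C-C array, are highest on the second EE-DE array.

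Other genes of nasal epithelium were taken from lists of known genes, and their values stand beside those of the members as counts and medians. Of 18 nasal metabolism enzymes 10 were measured on all arrays. Their C-DE/C-C median was −0.14, with 1 gene at least 1.5-fold lower. That gene was Cyp2a4, a P450 of the same chromosome 7 cluster whose sequence is close to that of Cyp2a5, at −0.99 (−1.90 to −0.08) over its probes, with 0.85 (−0.40 to 2.10) under enrichment (EE-DE/EE-C), or 0.05 without the second EE-C array, and 1.92 for housing under exhaust (EE-DE/C-DE). Gpx6, an odorant-metabolising glutathione peroxidase family member, differed by −0.55, but its pairings ran from −2.31 to 1.20. The highest of the list were Por, the P450 reductase, at 0.02 and Aldh3a1 at 0.08. The median was −0.06 without the first C-C array. Cyp4b1, Sult1c1 and Adh7 were well above background on none of the arrays.

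Of 18 epithelial junction and identity genes 9 were measured on all arrays, with a median of −0.18 and none past 1.5-fold in C-DE/C-C. That median was −0.01 without the first C-C array and −0.36 without the second. Cldn3, a claudin of tight junctions, was the lowest at −0.47 (−0.79 to −0.15) and followed the members with r = 0.95. Esrp1 stood at −0.31, Cldn7 at 0.02 and Spint1 at 0.08. Epcam, a general marker of epithelium, was well above background on 6 arrays, and Krt7 and Elf3 on none. In the basal cell list Krt5 differed by −0.29 and Trp63 by −0.05, while Krt15 and Krt17 were well above background on no array and Krt14 on 7.

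Of 18 nasal gland and secretory genes 8 were measured. Their median in C-DE/C-C was −0.35, and 3 were at least 1.5-fold lower: Scgb1c1, a secretoglobin, at −1.03 (−1.96 to −0.09), Ltf, lactoferrin, at −0.95 (−1.15 to −0.74), and Bpifb4 at −0.82 (−2.63 to 0.99). Bpifb1 at 0.03 and Scgb1a1 at 0.04 were the highest. Without the first C-C array the median of the gland genes was −0.01. Scgb1c1 followed the members with r = 0.87, and in EE-DE/EE-C it was 0.15 (−1.25 to 1.54). There it was 1.33 without the first EE-C array and −1.04 without the second. The 8 motile cilia genes differed by a median of −0.03, from −0.34 for Dnah5 and −0.10 for Dnali1 to 0.05 for both Spag6 and Foxj1, and none passed 1.5-fold in any of the 5 contrasts.

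The olfactory sensory neuron list had 10 of 11 genes measured, and their median C-DE/C-C difference was −0.24 (−0.11 and −0.41 without the first or second C-C array). Cnga4 at −0.95 (−1.39 to −0.51) and Ano2 at −0.90 (−1.25 to −0.55) were at least 1.5-fold lower there. Both were 0.72 higher in EE-DE than in EE-C, with lowest pairings of 0.03 for Cnga4 and 0.06 for Ano2. Without the second EE-C array they were at 0.28 and 0.29, and on the scale of spots well above background both were at 0.20 with pairings on both sides of 0. The highest were Adcy3 at −0.06 and Gng13 at −0.07, and Omp, the marker of mature olfactory sensory neurons, differed by −0.13.

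**Figure D4:**
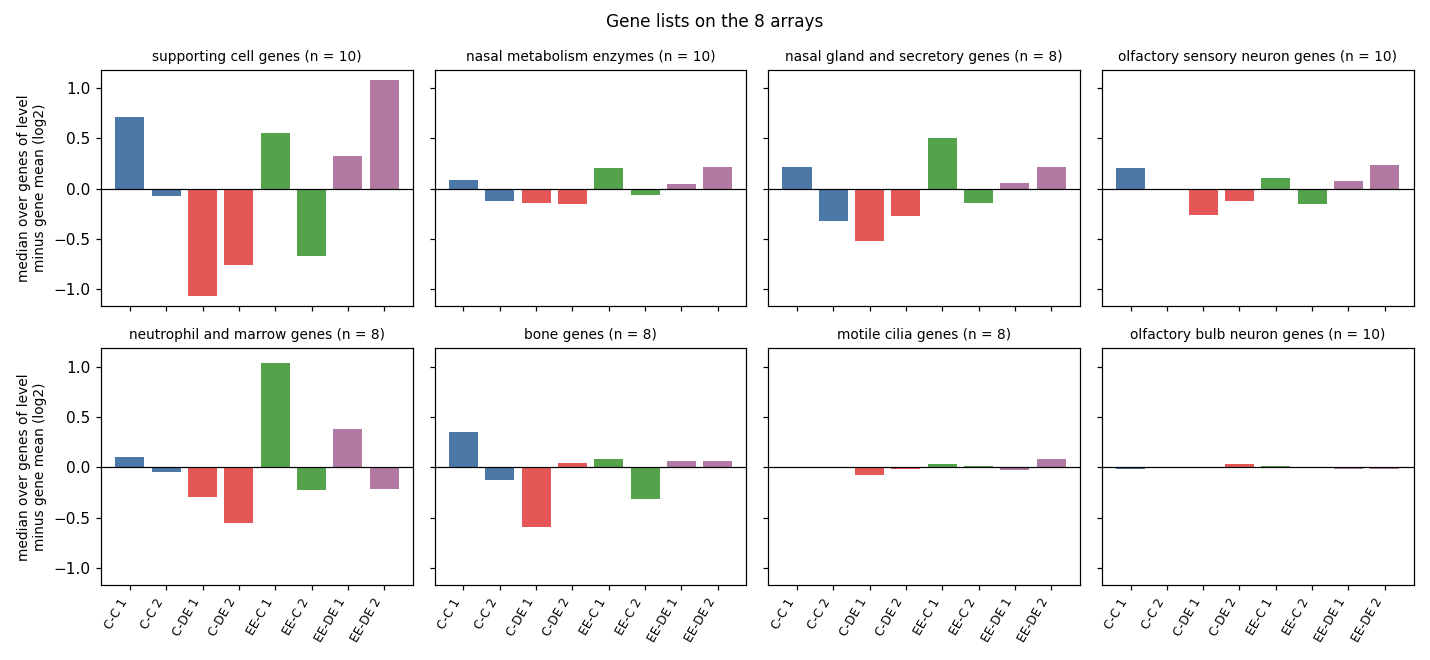
Median over the genes of each list of the level minus the gene's own mean over the 8 arrays (log2), as 1 bar per array; n is the number of genes measured on all arrays. The supporting cell genes run from −1.06 on the first C-DE array to 1.08 on the second EE-DE array, while the bars of the motile cilia and olfactory bulb neuron genes stay near 0.

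Genes of other tissues near the bulb were set beside the members. The 10 olfactory bulb neuron genes, which include Th of the dopaminergic cells and Eomes and Tbx21 of mitral and tufted cells, stood at a median C-DE/C-C difference of 0.04 with none past 1.5-fold in the 5 contrasts, and 6 reference genes had a median of −0.07. Summed over the list, the level as a multiple of the 75th percentile was 189 to 198 for the bulb neuron genes on the 8 arrays. For the members the sum was 5.45 to 9.74 in C-C, 2.77 to 3.52 in C-DE, 3.37 to 9.01 in EE-C and 7.86 to 13.1 in EE-DE. The gland genes summed to 2.68 to 6.88, 2.11 to 2.84, 4.26 to 8.34 and 4.20 to 5.02 in the same pools, and the olfactory sensory neuron genes to 105 to 130 over the 8 arrays. The EE-C low of 4.26, on the second array, holds 1 odd value, since Obp1a read 1.00 there and −1.97 to −2.27 on the other 7, and without Obp1a that sum was 2.25. The sum of the olfactory sensory neuron genes came mostly from Omp and Gng13, which read 5.47 to 6.15. No other gene of that list read above 1.51, so the sum says little about the others.

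The 8 neutrophil and marrow genes summed to 4.57 to 5.45 in C-C, 2.95 to 3.31 in C-DE, 3.81 to 9.67 in EE-C and 4.00 to 6.03 in EE-DE, and 4 of the 8 were at least 1.5-fold lower in C-DE/C-C (S100a8, S100a9, Ngp and Mpo), of which Ngp had pairings on both sides of 0 (−1.51 to 0.05). Within EE-DE the order of these genes ran the other way for all but Elane and Prtn3. The first array was higher by a median of 0.62 over the list. Their EE-DE/EE-C median was −0.32, or 0.40 without the first EE-C array. Of the 8 measured bone genes 3 were at least 1.5-fold lower in C-DE/C-C (Bglap, Bglap2 and Acp5), with sums of 7.49 to 11.3 in C-C, 5.46 to 8.69 in C-DE, 6.31 to 7.99 in EE-C and 8.15 to 8.16 in EE-DE, and Mmp13 was well above background on 4 arrays. The pairings crossed 0 for all 3, from −1.75 to 0.52 for Bglap, −1.79 to 0.45 for Bglap2 and −1.43 to 0.21 for Acp5. The median of the bone genes was −0.40, and −0.02 without the first C-DE array or −0.09 without the first C-C array. Without the second C-DE array it was −0.72, and without the second C-C array −0.63. The 4 red cell genes had a median of −0.20 and sums of 52.6 to 76.2 over the arrays, and the 5 meninges genes a median of 0.06 and sums of 13.2 to 20.4, with Dcn past 1.5-fold in EE-DE/EE-C at 0.66, but at 0.17 without the first EE-C array. The part of these tissues in the members' levels was not tested.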

How the data were processed

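Total RNA of olfactory bulbs was pooled by group, labelled with Cy3 and hybridised to 8 SurePrint G3 arrays (2 per pool, on 1 slide). The authors deposited 1 scanner file per array, with the intensity of each spot from Agilent Feature Extraction 10.7.3.1 after background subtraction and without scaling. They also deposited a table of log2 values, scaled and centred on each probe's median, and served as an alternative: its differences between arrays followed those computed here (r of at least 0.982), its column medians were −0.01 to 0.02, and its levels are unknown.

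Here the processed signal was divided by its 75th percentile over the 59305 noncontrol spots of the array and log2 transformed. Spots of a probe, then probes of a gene well above background on all 8 arrays, were averaged. The genes in all comparisons (16484, from 21709 probes) had an accession, exceeded background clearly on each of the 8 arrays and carried no outlier flag. Array signals at the 75th percentile were 644 to 716; 56.7% of noncontrol spots were well above background on the first EE-DE array and 68.0% to 70.6% on the others. No spot was saturated.

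Pool means were compared at 1.5-fold (0.585 on the log2 scale) with no test and no p-value, since a group is 1 pool. The computation of calls and of the likeness ranking was checked on simulated levels with planted differences, which it recovered. The simulated noise was independent between genes, unlike the shared duplicate gaps of the members, so the check covers the computation only. The members and all gene lists were chosen with earlier results of these data known. Named were the members in full, the 2 highest and 2 lowest measured genes of each list of nasal genes in C-DE/C-C, counts of 5 or fewer, and the 10 genes most alike and 5 most opposed to the mean member profile, by their best single probe. Others named were chosen after their values were seen. The 15 promoter motifs were also chosen then. Dnah5 was matched through its RefSeq accession; Cyp2a5, Ugt2a2, Plunc and Bpifb9a were not analysed. Probe positions are those of the scanner files (mm9). Alternatives were another scale, quantile normalization and normexp (offset 50), the series table, linear averaging, a local spatial correction, other choices of probes and thresholds, and each array left out; the pairings on the other scale, the gland sum without Obp1a and 5 list genes without single arrays were added after seeing the data. limma 3.58.1 (R 4.3.3) gave normexp and quantile values, and Python 3.11.15 with numpy 2.4.6, pandas 2.3.3 and matplotlib 3.10.9 all else.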

Additional observations from a re-analysis of the deposited data

Results flagged for a closer look

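For 2 of the 10 genes every pairing of arrays was below 0 for diesel exhaust in standard cages and above 0 for diesel exhaust under enrichment, as held for 2.21% of all genes. The exposure difference under enrichment exceeded that in standard cages by 2.38 (log2) for Umodl1 and by 2.09 for Mslnl. The difference between the housings was not tested, and both contrasts in it served to choose the genes, so nothing is read from its size or count. With the median of spots well above background as the scale, the lowest pairing under enrichment was −0.79 for Umodl1 and −0.80 for Mslnl, so that the sign then held in the means only (0.56 for Umodl1 and 0.45 for Mslnl). The other 8 genes had the same signs in the pool means but pairings on both sides of 0 under enrichment.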

How the results depend on the processing

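The members' median stayed negative in C-DE/C-C and positive in EE-DE/C-DE under every alternative run, with all 10 genes past 1.5-fold whichever array was left out. Scaling by the median of spots well above background, which are fewer on the first EE-DE array, moved the median of all genes by −0.51 to −0.53 in the 3 contrasts with EE-DE. Under it the members' median was 1.10 in EE-DE/C-DE and −0.14 in EE-DE/C-C, 1 gene was past 1.5-fold in EE-DE/EE-C and none (0) in EE-DE/C-C, and the duplicates differed by 0.96 in C-C, −0.47 in C-DE and −1.54 in EE-DE. With normexp Krt8 was −0.63 in C-DE/C-C and 0.85 for EE-DE/C-DE, 1 gene passed in EE-DE/C-C and the C-C duplicates differed by 0.65. With linear averaging 1 gene passed in EE-C/C-C and 1 in EE-DE/C-C. At 2-fold 0 genes passed in EE-C/C-C or EE-DE/C-C, and 2 passed in EE-DE/EE-C. At 1.5-fold in all 4 pairings 6 passed in C-DE/C-C, all 10 for EE-DE/C-DE and 0 in the other 3 contrasts; with the other scale as well, 3 passed in C-DE/C-C and 1 for EE-DE/C-DE. With all probes of a gene Krt8 turned to 0.89 in EE-C/C-C and to −0.74 in EE-DE/EE-C. The cause was not tested except where the threshold itself was raised.

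With 1 array left out, the members' median ran from −1.65 to −0.77 for C-DE/C-C and from 1.28 to 2.02 for EE-DE/C-DE. For EE-DE/EE-C it ran from 0.19 to 1.34. For EE-C/C-C it ran from −0.93 to 0.30, turning positive without the second EE-C array. For EE-DE/C-C it ran from −0.01 to 0.78, and was −0.0064 without the second C-C array. The counts past 1.5-fold ran from 0 to 10 in each of the last 3 and stayed at 10 in the first 2. For Cyp2g1 EE-C/C-C was 0.34 without the second EE-C array and −1.73 without the first. No paired analysis was possible because the array number marks a technical duplicate and no result comes from a test.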
